A study of Mus musculus with 6 samples.

Results

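Collagen genes were examined in C2C12 cells, a line of mouse myoblasts, with and without cyclic stretch. The 44 collagen chains were all rows of the deposited table whose symbol is Col, a type number, the letter a and a chain number, out of 22375 rows, and they were grouped by type number into 11 fibrillar, 9 network, 6 type VI, 9 FACIT, 4 transmembrane and 5 other chains. The CON group held 3 libraries of cells that were not stretched, and the 4H group held 3 libraries of cells stretched cyclically for 4 h at 15% elongation. The cells were kept in medium with fetal bovine serum, and those to be stretched were seeded on elastic plates coated with poly-lysine. Replicates are numbered after the descriptions, so the 4H columns 4H1, 4H3 and 4H4 are replicates 1, 2 and 3. The labels call the libraries biosamples and do not say whether they came from separate cultures, so the p-values measure the spread between these libraries, which may be technical. C2C12 is 1 cell line, and RNA was taken from whole cultures, so fewer cells of a type and less RNA per cell cannot be told apart. The comparison addresses whether a mechanical load on myoblasts changes the transcripts of the fibrous and basement membrane matrix.

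Collagens are secreted proteins built from chains that wind around each other into a rope-like helix of repeated glycine triplets. Fibrillar collagens such as types I, III and V pack side by side into the fibers that give tissue its tensile strength and that accumulate in fibrosis. Network collagens such as types IV and VIII join at their ends into sheets, and type IV forms the scaffold of the basement membrane that wraps every muscle fiber. Type VI makes beaded microfilaments between the basement membrane and the surrounding matrix, and its loss causes the collagen VI muscular dystrophies. FACIT collagens sit on the surface of fibers, and transmembrane collagens stay anchored in the plasma membrane.

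Values are FPKM, fragments scaled to transcript length and to the fragments mapped in the library, as the authors deposited them. FPKM is a level per length, so levels of different chains can be set side by side. It carries no fragment numbers, and how deeply a library was sequenced is unknown. FPKM summed to between 395790 and 397260 over a CON library and to between 385146 and 387516 over a 4H library. Between 14125 and 14186 rows were above 0 in a CON library and between 14899 and 14972 in a 4H library. Of the 8 myoblast markers examined, 6 were at a mean of at least 1 FPKM, and the summed level of the 8 was 175.2 to 179.6 FPKM in the CON group and 262 to 275 FPKM in the 4H group. They did not move together, since mean Myod1 rose from 5.13 to 18.2 FPKM and mean Myf5 fell from 15.8 to 9.82 FPKM (adjusted p = 0.000347 for Myf5 from limma). The summed level of 8 fibroblast markers, with Col15a1 among them, was 17.7 to 18.5 and 16.8 to 19.5 FPKM, with Thy1 and Lum at 0 in every CON library. Within that sum Pdgfra rose from 3.15 to 5.08 FPKM and Tcf4 fell from 13.99 to 11.1 FPKM. The 9 myotube markers summed to 1.82 to 2.45 FPKM in the CON libraries versus 3.13 to 3.74 FPKM after stretch, where mean Acta1 was 1.10 and 1.87 FPKM, mean Mymk 0.525 and 1.01 FPKM and mean Myog 0.217 and 0.0265 FPKM. The 4 endothelial markers summed to 0.101 to 0.122 FPKM without stretch and 0.254 to 0.387 FPKM with it. The 4 epithelial markers summed to 0.0401 to 0.117 and 0.319 to 0.553 FPKM, with Epcam at 0 in all 6. The 4 macrophage markers summed to 6.73 to 8.51 FPKM in the CON group and 16.5 to 18.5 FPKM in the 4H group, mostly from Cd68. Of their defining genes, Ptprc and Adgre1 were at 0 in all 6 libraries, while the mean of Csf1r was 0.00906 FPKM in the CON libraries versus 1.08 FPKM after stretch, and it passed the filter on low values only through the 4H group. The part of these marker levels in the collagen results was not tested.

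Of the 44 chains, 17 averaged 0.5 FPKM or more across both groups together and were tested, and all 17 also did so in each group on its own. These 17 carried at least 99.5% of the collagen FPKM in every library. The test was limma on log2(FPKM + 0.5) across the 11593 genes that passed this filter, with Benjamini-Hochberg adjustment, and a chain that passed an adjusted p of 0.05 is said to have risen or fallen. At that threshold 13 of the 17 chains (76.5%) differed, against 46.7% of all genes tested. Of these, 9 rose, against 22.6% of all genes, and 4 fell, against 24.1% of all genes. A log2 fold change of at least 1 in addition, the threshold for a differentially expressed gene in the study, was met by 4 chains (23.5%), against 3.88% of all genes. All 4 rose, against 2.61% of all genes, and 0 fell, against 1.28%, although 4 chains were lower at an unadjusted p of 0.05 in limma. The groups did not overlap in 14 of the 17 chains, against 56.7% of all genes. Of these, 9 were higher in the 4H group, against 27.5% of all genes, and 5 lower, against 29.2%. The median log2 fold change of the 17 chains was 0.22, and that of all genes tested was -0.01.

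By class, fibrillar chains went both ways, with 2 higher, 3 lower and 1 not called of 6 tested. With TPM 4 and without a filter 5 fibrillar chains were called higher, beside 3 lower in each. Both settings let chains of lower level enter the test, and Col2a1 entered the fit without a filter only through the 4H group. Network chains had 3 higher and 1 not called of 4, and type VI had 2 higher and 1 not called of 3. The FACIT class had 1 lower and 1 not called of 2, both chains tested in the remaining class rose, and no transmembrane chain reached the filter.

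**Figure D1:**
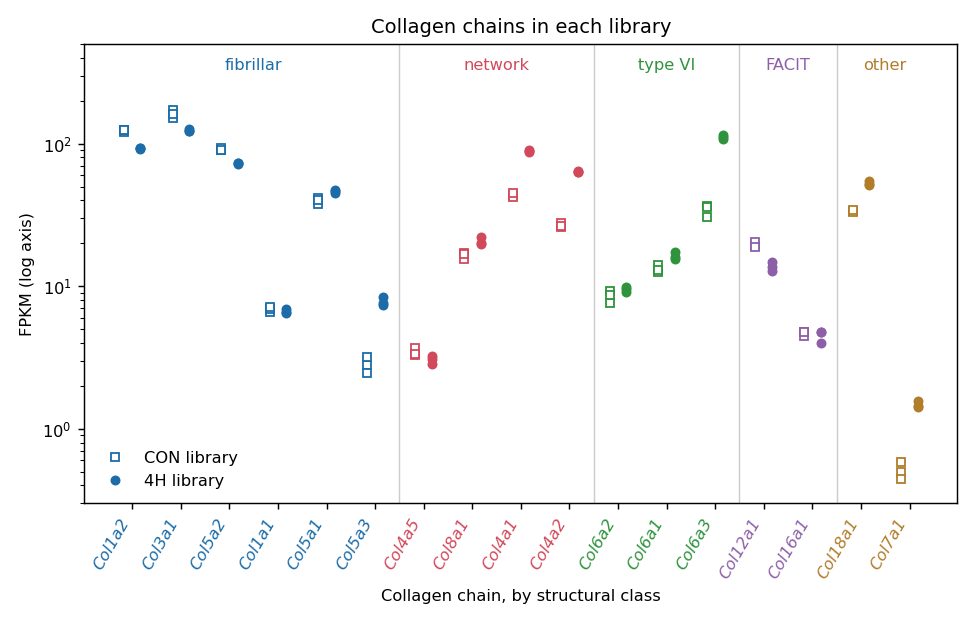
FPKM of the 17 tested collagen chains on a log axis, by structural class, with 1 open square for each of the 3 CON libraries and 1 filled circle for each of the 3 4H libraries. The groups are separate in 14 chains and overlap in Col1a1, Col6a2 and Col16a1.

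The sequences shown first belong to chains past both thresholds. Col4a1 and Col4a2 encode the chains of the common form of type IV collagen and lie head to head on chromosome 8, Col4a1 on the minus strand (chr8:11198423-11312826) and Col4a2 on the plus strand (chr8:11312805-11449287, GRCm38, GENCODE M21). Their first exons overlap by 22 bases on opposite strands. That overlap, chr8:11312805-11312826, reads as follows on the plus strand (RefSeq, GRCm38.p6), in lower case because no part is singled out.
Col4a1 and Col4a2 overlap: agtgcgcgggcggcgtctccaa
The shared stretch is short against the exons of either gene, which cover 7464 bases in Col4a1 and 6619 bases in Col4a2. Whether the authors' counting used the strand is not given in the sources used here.

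Promoter windows of 250 bases before the start site are shown for the other chains past both thresholds, Col6a3 and Col5a3, and for Col3a1, the most abundant chain, which fell. RefSeq (GRCm38.p6) gave a window for 35 of the 44 chains. Both strands were searched for 8 short motifs, written here 5′ to 3′. The TATA box was searched as TATAAA and the binding site of NF-Y as CCAAT. The GC box of Sp1 was searched as GGGCGG and the AP-1 site as TGACTCA. For TEAD factors the letters were CATTCC. The serum response factor site was searched as the CArG box, which is CC, a run of fixed length of A or T, and GG. The Smad-binding element was searched as GTCTAGAC. The CAGA box, also bound by Smad proteins, was searched as AGCCAGACA. Capitals in the windows mark every match on either strand, and no matches overlap each other. The windows are chr1:90843972-90844221 on the minus strand for Col6a3, chr9:20815068-20815317 on the minus strand for Col5a3 and chr1:45311288-45311537 on the plus strand for Col3a1.
Col6a3: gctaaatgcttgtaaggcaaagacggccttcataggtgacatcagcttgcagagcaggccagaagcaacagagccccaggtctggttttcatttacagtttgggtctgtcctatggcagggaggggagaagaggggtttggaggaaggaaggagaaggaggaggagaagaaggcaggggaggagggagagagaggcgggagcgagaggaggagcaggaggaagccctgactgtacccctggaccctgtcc
Col5a3: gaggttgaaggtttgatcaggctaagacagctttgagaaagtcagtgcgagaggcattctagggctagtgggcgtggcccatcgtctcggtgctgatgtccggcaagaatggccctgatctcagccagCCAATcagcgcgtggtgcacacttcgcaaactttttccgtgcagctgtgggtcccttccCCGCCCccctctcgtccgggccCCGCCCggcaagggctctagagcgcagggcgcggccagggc
Col3a1: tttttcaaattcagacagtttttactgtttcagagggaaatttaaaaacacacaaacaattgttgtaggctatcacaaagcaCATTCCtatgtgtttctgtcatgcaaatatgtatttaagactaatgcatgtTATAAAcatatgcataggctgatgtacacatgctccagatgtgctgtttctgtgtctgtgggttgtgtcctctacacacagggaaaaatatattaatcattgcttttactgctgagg
None of these letter strings was found in the Col6a3 window. The Col5a3 window held 1 CCAAT, which 33.8% of all 32851 promoter windows of this length hold, and 2 GC boxes, which 32.7% hold at least once. The Col3a1 window held 1 TATAAA, present in 12.4% of all windows, and 1 CATTCC, present in 12.6%. The shares for the strings absent from all 3 windows were 4.46% for AP-1, 0.167% for the Smad-binding element, 0.301% for the CAGA box and 1.47% for the CArG box.

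Type VI collagen held the largest change among the tested chains, in Col6a3. Col6a3 (ENSMUSG00000048126, chr1:90765923-90843971), the largest chain of the type VI trimer, was at 30.7, 36.6 and 35.8 FPKM in the CON libraries versus 110.5, 108 and 114 FPKM in the 4H libraries. The 4H libraries lay far above every CON library, and Col6a3 went from rank 6 to rank 2 among the collagen chains by level. Its mean rose from 34.4 ± 3.19 to 111 ± 3.00 FPKM (SD, n = 3 each), 3.23 times the CON mean, a log2 fold change of 1.68 (SE, the standard error, 0.06, adjusted p = 5.13e-07 from limma). Col6a1, a partner that every type VI trimer needs, was at 12.6, 14.02 and 13.05 FPKM in the CON libraries versus 16.1, 17.3 and 15.5 FPKM in the 4H libraries. It rose by a log2 fold change of 0.29 (SE 0.06, adjusted p = 0.00534), with no overlap between the groups. Col6a2, the other partner, was at 7.65, 9.20 and 8.64 FPKM in the CON libraries versus 9.11, 9.92 and 9.58 FPKM in the 4H libraries. Those ranges overlap, and the log2 difference of 0.16 did not pass the test (95% interval -0.02 to 0.34, adjusted p = 0.121). The interval of Col6a2 lay wholly below that of Col6a3, which ran from 1.53 to 1.83.

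The chain ratios show the same contrast within each library. Col6a3 over Col6a1 was 2.44, 2.61 and 2.75 in the CON libraries and 6.86, 6.28 and 7.40 in the 4H libraries. Col6a1 over Col6a2, whose genes lie on the same strand of chromosome 10 with 85161 bases between them, was 1.56 ± 0.07 in the CON group and 1.71 ± 0.08 in the 4H group (SD, n = 3 each), and its ranges overlap. The other type VI chains were close to nothing in these cells. Col6a4 and Col6a5 were at most 0.0434 and 0.00637 FPKM in any library, and Col6a6 was listed at 0 in all 6.

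Type IV collagen of the basement membrane rose in both of its common chains. Col4a1 (ENSMUSG00000031502) was at 43.9, 42.1 and 44.8 FPKM in the CON libraries versus 88.7, 87.1 and 90.1 FPKM in the 4H libraries. Col4a2 (ENSMUSG00000031503), its partner in the trimer and its neighbour on the chromosome, was at 27.8, 25.9 and 26.4 FPKM in the CON libraries versus 62.8, 63.2 and 64.8 FPKM in the 4H libraries. In both genes every 4H library was above every CON library, and the spread within a group was small. The log2 fold change was 1.01 for Col4a1 (SE 0.03, adjusted p = 3.08e-07 from limma) and 1.24 for Col4a2 (SE 0.04, adjusted p = 1.88e-07). Col4a1 stood at the edge of the threshold of 1, and without CON replicate 2 its log2 fold change was 0.99. Type IV collagen of this form holds more of the alpha 1 chain than of the alpha 2 chain. Col4a1 over Col4a2 was 1.58, 1.62 and 1.70 in the CON libraries and 1.41, 1.38 and 1.39 in the 4H libraries, lower in every 4H library.

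Col4a5 and Col8a1, the other network chains that reached the filter, had smaller log2 differences. Col4a5, a type IV chain with a narrower tissue range whose gene pairs head to head with Col4a6 on chromosome X, was at 3.31, 3.66 and 3.34 FPKM in the CON libraries versus 2.83, 3.11 and 3.22 FPKM in the 4H libraries. The 4H values were all lower, but the log2 difference of -0.15 did not pass the test (95% interval -0.35 to 0.05, adjusted p = 0.195). Col8a1, a short-chain collagen known from vessel walls and the cornea, rose from 16.5 ± 0.81 to 20.6 ± 1.20 FPKM (SD, n = 3 each), or by 0.31 on the log2 scale (SE 0.06, adjusted p = 0.00294). Its partner Col8a2 was at most 0.0274 FPKM in any library. The kidney chains Col4a3 and Col4a4 reached 0.0139 and 0.0596 FPKM at most, and Col10a1, a marker of hypertrophic cartilage, 0.0605 FPKM.

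Among the fibrillar chains, the 3 most abundant fell. Col3a1 (ENSMUSG00000026043, chr1:45311538-45349706), whose product forms type III collagen on its own, was at 150.2, 171 and 161 FPKM in the CON libraries versus 127.1, 121.8 and 121.7 FPKM in the 4H libraries. Col1a2, a chain of type I collagen, was at 120.2, 125 and 124 FPKM in the CON libraries versus 93.6, 92.5 and 91.5 FPKM in the 4H libraries. Col5a2, a chain of type V collagen, was at 90.4, 92.9 and 90.9 FPKM in the CON libraries versus 71.5, 72.8 and 73.1 FPKM in the 4H libraries. These led the collagen chains of the CON group in abundance, and in each of them every 4H library lay below every CON library. The log2 fold change was -0.37 for Col3a1 (SE 0.05, adjusted p = 0.000341), -0.41 for Col1a2 (SE 0.03, adjusted p = 1.29e-05) and -0.33 for Col5a2 (SE 0.03, adjusted p = 4.11e-05, all from limma). Col3a1 shares 141 exon bases with Gm47302, an annotated miRNA gene on its strand that is not in the table. Col3a1 and Col5a2 are neighbours on chromosome 1, tail to tail, with 24614 bases between them.

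Col1a1, the chain that makes up most of the type I trimer, did not follow Col1a2. It was at 6.58, 6.94 and 7.16 FPKM in the CON libraries versus 6.44, 6.93 and 6.56 FPKM in the 4H libraries. The ranges overlap, and the log2 difference of -0.05 did not pass the test (95% interval -0.20 to 0.10, adjusted p = 0.570). That interval lay above the interval of Col1a2, -0.47 to -0.34. Col1a1 was far below its partner in every library. Col1a1 over Col1a2 was 0.0547, 0.0556 and 0.0577 in the CON libraries and 0.0688, 0.0749 and 0.0717 in the 4H libraries, whereas the type I trimer holds more alpha 1 than alpha 2 chains.

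The type V chains parted from each other. Col5a1, the chain present in most type V trimers and needed to start fibers, was at 37.5, 41.7 and 40.1 FPKM in the CON libraries versus 47.1, 46.7 and 45.1 FPKM in the 4H libraries, a rise of 0.22 on the log2 scale (SE 0.05, adjusted p = 0.00477). Col5a3 (ENSMUSG00000004098), a chain of narrower distribution, was at 2.80, 3.21 and 2.48 FPKM in the CON libraries versus 7.37, 7.58 and 8.35 FPKM in the 4H libraries. Every 4H library stood well above every CON library, and the log2 fold change was 1.32 (SE 0.10, adjusted p = 1.87e-05 from limma). Col5a3 was the lowest of the type V chains in both groups. Col5a1 over Col5a2 was 0.435 ± 0.02 in the CON group and 0.639 ± 0.02 in the 4H group. Col5a3 over Col5a1 was 0.0712 ± 0.008 and 0.168 ± 0.02 (SD, n = 3 each). For both ratios the 4H values all lay above the CON values.

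**Figure D2:**
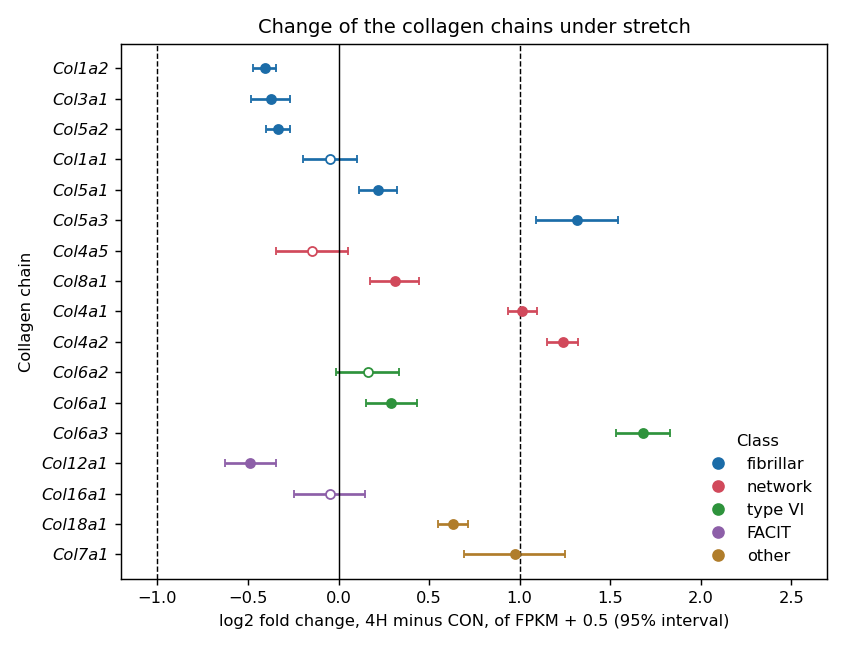
Log2 fold change, 4H minus CON, of FPKM + 0.5 for the 17 tested collagen chains, with 95% intervals from limma, filled where the adjusted p was at most 0.05 and colored by class. Dashed lines mark a log2 fold change of 1 in either direction, and Col6a3, Col5a3, Col4a2 and Col4a1 lie at or beyond the upper line, with none beyond the lower.

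In the FACIT class only Col12a1 and Col16a1 reached the filter. Col12a1, which coats type I fibers and is known from tendon and muscle, was at 19.02, 20.4 and 18.8 FPKM in the CON libraries versus 13.6, 14.7 and 12.9 FPKM in the 4H libraries. All 4H values were below all CON values, and it fell by 0.49 on the log2 scale (SE 0.06, adjusted p = 0.000344), the largest fall among the tested chains. Col16a1 was at 4.76, 4.49 and 4.73 FPKM in the CON libraries versus 4.73, 4.01 and 4.76 FPKM in the 4H libraries. Its ranges overlap, with a log2 difference of -0.05 (95% interval -0.24 to 0.15, adjusted p = 0.675).

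Outside these classes, Col18a1 and Col7a1 rose. Col18a1, a basement membrane collagen that carries heparan sulfate and releases endostatin, was at 33.8, 33.1 and 34.2 FPKM in the CON libraries versus 52.4, 51.3 and 54.3 FPKM in the 4H libraries. The log2 fold change was 0.63 (SE 0.04, adjusted p = 3.94e-06). Col7a1, the chain of the anchoring fibrils known from skin, was low, at 0.582, 0.498 and 0.443 FPKM in the CON libraries versus 1.42, 1.55 and 1.45 FPKM in the 4H libraries. The groups were well apart, and the mean rose to 2.90 times the CON mean, while the log2 fold change on the FPKM + 0.5 scale, which understates the change of low genes, was 0.97 (SE 0.12, adjusted p = 0.000319). With a pseudocount of 0.1 FPKM it was 1.38, and without CON replicate 1 it was 1.02. With libraries rescaled to TPM, where values are larger and the added 0.5 also weighs less, it was 1.28. In each of these settings Col7a1 passed both thresholds.

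Summed over the chains of a class, the collagen transcripts shifted between classes. Fibrillar chains summed to 408, 441 and 426 FPKM in the CON libraries and to 355, 349.5 and 347 FPKM in the 4H libraries. Network chains summed to 92.3, 87.5 and 91.7 FPKM and to 175, 176 and 178 FPKM, and type VI chains to 51.0, 59.8 and 57.5 FPKM and to 136, 136 and 139 FPKM. As a share of all collagen FPKM, fibrillar chains went from 67.4 ± 0.65% in the CON group to 47.5 ± 0.52% in the 4H group (SD, n = 3 each). Network chains went from 14.4 ± 0.81% to 23.9 ± 0.22%, and type VI chains from 8.89 ± 0.48% to 18.6 ± 0.25%. FACIT chains held 3.85 ± 0.08% and 2.54 ± 0.10%. None of these shares overlapped between the groups. Col3a1, Col1a2 and Col5a2 together held 59.4 ± 0.50% of collagen FPKM in the CON group and 39.1 ± 0.41% in the 4H group. All chains together summed to 610.5, 647 and 634 FPKM in the CON libraries and to 739, 734 and 739 FPKM in the 4H libraries, 1.17 times the CON mean. Each class sum leans on few chains. Without Col6a3 the type VI sum rose by 0.25 on the log2 scale, and without Col12a1 the FACIT sum, mostly Col16a1, differed by 0.06 in the other direction. These sums and shares are given as values without a test.

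**Figure D3:**
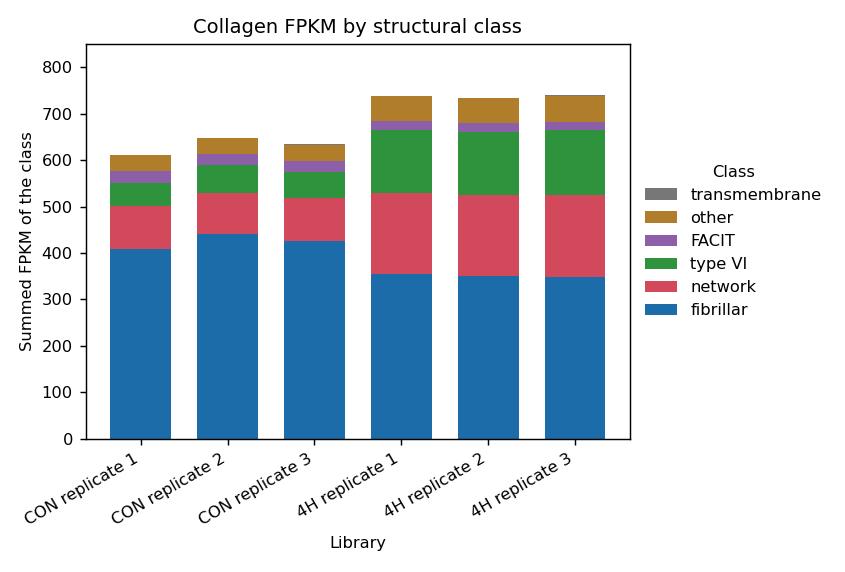
Summed FPKM of the collagen chains of each structural class, stacked, in the 3 CON and the 3 4H libraries, on an axis that starts at 0. The fibrillar block is lower and the network and type VI blocks are taller in each 4H library, and the whole column is 739, 734 and 739 FPKM high there.

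**Figure D4:**
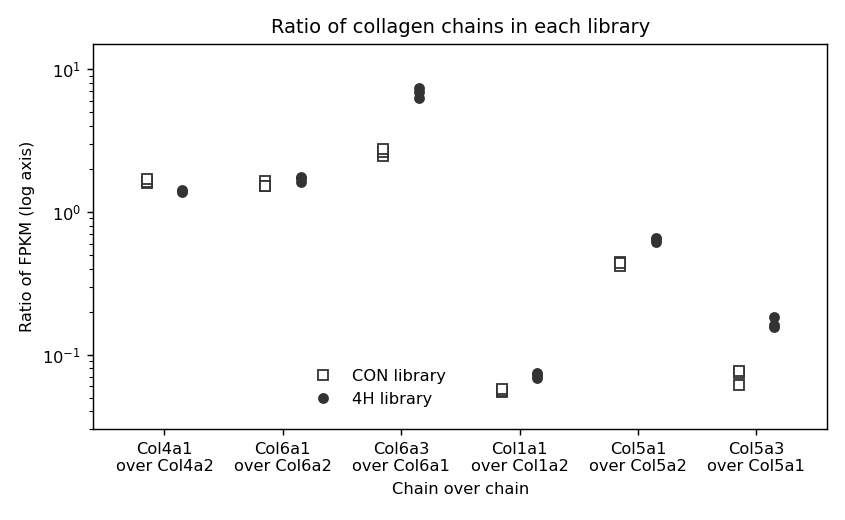
Ratio of the FPKM of 2 collagen chains in each library on a log axis, for 6 pairs of chains of the same collagen type that passed the filter, with open squares for CON and filled circles for 4H libraries. Groups overlap for Col6a1 over Col6a2, Col4a1 over Col4a2 is lower in the 4H libraries, and the other 4 ratios are higher there.

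The 27 chains below the filter reached 0.646 FPKM at most in any library. Of these, 2 (Col6a6 and Col13a1) were listed at 0 in all 6 libraries, 17, these 2 included, were at 0 in at least 1 library and 10 were above 0 in all. A fit without a filter, which 25 of them could enter, placed 6 higher and 1 lower at an adjusted p of 0.05, where 17.9% and 15.7% of its 16576 genes were called in these directions. The 6 were Col17a1, Col27a1, Col11a1, Col9a3, Col2a1 and Col23a1, and the 1 lower was Col4a6. Col2a1 entered this fit only through the 4H libraries, so its call is no support for a rise. At these levels the added 0.5 FPKM keeps log2 fold changes small, so the threshold of 1 says little here. Without it, the ratio of the 4H mean to the CON mean was 3.55 for Col27a1, 2.18 for Col17a1 and 0.437 for Col4a6, and no fold is given for Col2a1. Col17a1, a collagen of hemidesmosomes that spans the membrane, was at 0.236, 0.213 and 0.312 FPKM in the CON libraries versus 0.571, 0.646 and 0.443 FPKM in the 4H libraries (adjusted p = 0.00928 from limma without a filter). Col27a1, a fibrillar chain of cartilage, was at 0.0601, 0.131 and 0.0885 FPKM and at 0.406, 0.306 and 0.280 FPKM (adjusted p = 0.00381). Col11a1, which joins type V in fibers, was at 0.255 ± 0.03 and 0.483 ± 0.10 FPKM (SD, n = 3 each, adjusted p = 0.0199 from limma without a filter). Col2a1, the main collagen of cartilage, was listed at 0 in the CON libraries and reached 0.215, 0.0509 and 0.128 FPKM after stretch. These levels are a small part of the collagen transcripts. Col9a3, a FACIT chain of cartilage, was at 0.120, 0.0248 and 0.243 FPKM in the CON libraries versus 0.411, 0.346 and 0.381 FPKM after stretch, with an uneven CON group. It shares 234 exon bases with Tcfl5 on the other strand, which was at most 0.028 FPKM on average in either group. The 18 chains not called in that fit were at most 0.343 FPKM in any library.

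Collagen chains need enzymes and chaperones before they leave the cell and crosslinks afterwards. Of 34 such genes tested, 18 rose and 7 fell at an adjusted p of 0.05, and the median log2 fold change was 0.16. Tll1, a protease that removes procollagen propeptides, rose from 0.955 ± 0.18 to 4.63 ± 0.58 FPKM (SD, n = 3 each, 1.82 on the log2 scale, adjusted p = 1.52e-05 from limma). Loxl2, a lysyl oxidase that crosslinks type IV collagen, rose from 0.819 ± 0.13 to 2.19 ± 0.57 FPKM (1.01 on the log2 scale, adjusted p = 0.00135). Serpinh1, the collagen chaperone HSP47, fell from 273 ± 10.9 to 204 ± 3.67 FPKM (-0.42 on the log2 scale, adjusted p = 3.12e-05), and it was named after its value was seen. Among 9 tested collagen receptors and matrix-binding surface proteins, 6 rose and 1 fell, with a median of 0.39. Adgrg1, a receptor for type III collagen, rose from 2.57 ± 0.28 to 9.47 ± 0.68 FPKM (1.70 on the log2 scale, adjusted p = 3.08e-06), and Cd44 from 101.3 ± 2.75 to 234 ± 8.86 FPKM (1.20 on the log2 scale, adjusted p = 1.66e-07). Ddr2, a kinase receptor for fibrillar collagen, was the 1 that fell, from 48.3 ± 1.03 to 25.1 ± 1.03 FPKM (-0.93 on the log2 scale, adjusted p = 1.14e-06). The integrin alpha chains that bind collagen, Itga1, Itga2, Itga10 and Itga11, did not reach the filter. Of 16 tested partners of type IV collagen in the basement membrane, 7 rose and 3 fell, with a median of 0.07. Lamb3, a laminin chain, rose from 2.96 ± 0.13 to 6.51 ± 0.83 FPKM (SD, n = 3 each, 1.01 on the log2 scale, adjusted p = 7.7e-05 from limma). Loxl2 and Lamb3 stood at the edge of the log2 threshold of 1, and their log2 fold changes were 0.85 without 4H replicate 1 and 0.92 without 4H replicate 3. Beside the counts in these lists, 46.7% of all genes tested were called, 22.6% higher and 24.1% lower.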

How the data were processed

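RNA-seq was made by the submitters from poly(A) RNA of C2C12 cells as strand-specific, paired-end libraries. The authors deposited 1 table of FPKM values with 1 column per library. The submitters' processing notes name the build mm10, while no source used here gives the aligner, the counting tool or the annotation. GENCODE M21 (GRCm38, the same assembly as mm10) gave positions for all 44 chains, and 22017 of the 22375 rows carry an identifier in it. Promoter sequences came from RefSeq.

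FPKM is not a count, so limma 3.58.1 in R 4.3.3 was used on log2(FPKM + 0.5) with a variance trend, two-sided, without a replicate block, where the mean over all libraries reached 0.5 FPKM. It was tested on simulated data. The thresholds, an adjusted p of 0.05 and an absolute log2 fold change of 1, follow the study. An exact permutation test of 3 libraries against 3 cannot go below p = 0.1. Tables and plots used Python 3.11.15, pandas 2.3.3 and matplotlib 3.10.9.

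Every chain that passed the filter is named, and of the other lists the members past both thresholds, except for a result that is not reported here. The members and lists were chosen with earlier results of these data known. Serpinh1, Ddr2 and the collagen-binding integrin chains were named after their values were seen. Alternatives were other pseudocounts and filters, a block, no trend, other scalings and each library left out. Protein features of the chains were not analysed here.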

Additional observations from a re-analysis of the deposited data

How the results depend on the processing

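With the pseudocount, filter, trend, scaling, block or 1 library changed, 236 of the 237 fold changes of collagen chains kept their direction and their side of an adjusted p of 0.05. The exception was the log2 fold change of Col16a1, which was not called in any setting and ranged from -0.0864 (without 4H replicate 3) to 0.0250 (without 4H replicate 2) with 1 library left out. With 1 library left out, 9 chains were called higher and 4 lower each time, and 3 to 5 passed both thresholds. Without a filter, 15 chains were called higher in place of 9, because more chains could be tested, and with TPM 13 were. Of 168 counts by class, 8 differed by over 1.5 times: without a filter and with TPM more fibrillar, FACIT and transmembrane chains were called higher, without a filter 1 network chain was called lower, and with the filter at 1 FPKM 1 other chain was called higher in place of 2. Same-numbered libraries deviated from their group means with correlations of 0.03, -0.09 and -0.13. The highest correlation between a CON and a 4H library was 0.176, for CON replicate 3 and 4H replicate 2, the columns C3 and 4H3. With so few libraries in a group, these correlations cannot show whether libraries were paired. With the replicate block 9 chains were called higher and 4 lower.

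The log2 ratios of summed FPKM changed when the most abundant chain was left out, to -0.22 for fibrillar chains. The move from the full fibrillar ratio, not the ratio itself, was close to the SD of the CON libraries on the log2 scale. The ratios became 0.90 for network, 0.25 for type VI, 0.79 for transmembrane, 1.60 for other and 0.38 for all chains. For FACIT chains the ratio became 0.0562, in the opposite direction. TPM divides by the summed FPKM of each library, which was lower in the 4H group, and so raised the log2 ratio of every class by the same small amount, to 1.00 for network, 0.70 for other and 0.26 for all chains. FPKM holds no depth, so no counting error can be given.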
